A study of Mus musculus with 11 samples.

Results

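The genes described here build and mark the epithelial cell surface: the adherens junction cadherin Cdh1, the adhesion molecule Epcam, the tight junction genes Cldn3, Cldn4, Cldn7, Ocln and Tjp1, and the simple epithelial keratins Krt8, Krt18 and Krt19. They were chosen by gene symbol, with earlier results of these data known. All 10 genes were measured, by 17 of the 34945 probe sets with a single gene symbol, out of 18193 genes in all. The arrays carried total RNA of 5 groups of mouse cells, all on a background that mixes C57/Bl and BlackSwiss. Induced pluripotent stem cells came from ventricular myocytes (ViPSC, n = 3 arrays) or from tail tip fibroblasts (TiPSC, n = 3), and embryonic stem cells of matched genetics (ESC, n = 3) were the reference. The source cells, tail tip fibroblasts (TTF) and ventricular myocytes (VM) of pups at postnatal day 1, had 1 array each. All pluripotent cells grew on irradiated embryonic fibroblast feeders, which were depleted by differential plating. Whether the arrays of a group were separate cultures or lines is not given in the labels, so a group may be 1 line and p-values measure only the spread between these arrays. The reprogramming method is not given in the sources used here.

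Epithelial cells are held together by adherens junctions, in which E-cadherin binds E-cadherin on the neighbouring cell, and sealed by tight junctions, in which claudins and occludin span the membrane and are anchored to actin by scaffold proteins such as ZO-1. Type I keratins (Krt18, Krt19) pair with type II keratins (Krt8) into the intermediate filaments of simple epithelia. Mouse embryonic stem cells are epithelial in this sense and need E-cadherin for compact colonies, and fibroblasts pass through a mesenchymal-to-epithelial transition when they are reprogrammed. Repressors of the Snail and Zeb families bind E-box sequences in promoters of epithelial genes.

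The 250 bases before the annotated start of 5 of the genes are shown because E-box repressors act at such sites and because these genes include Epcam and Cldn4, far higher in pluripotent than in source cells, the keratin pair and the claudin that passed the test below. They come from RefSeq, build GRCm38.p6, and run 5′ to 3′ on the gene's strand. The Epcam window is chr17:87635729-87635978 (plus strand), that of Cldn3 chr5:134985964-134986213 (plus), of Cldn4 chr5:134946935-134947184 (minus), of Krt8 chr15:102004343-102004592 (minus) and of Krt18 chr15:102027966-102028215 (plus). Capitals mark the E-box CAGGTG on either strand, which reads CACCTG on the other.
Epcam: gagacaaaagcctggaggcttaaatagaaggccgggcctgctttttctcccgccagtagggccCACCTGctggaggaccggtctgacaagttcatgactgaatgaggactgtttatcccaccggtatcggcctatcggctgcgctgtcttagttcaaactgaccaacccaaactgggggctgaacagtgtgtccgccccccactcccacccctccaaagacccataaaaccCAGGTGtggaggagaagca
Cldn3: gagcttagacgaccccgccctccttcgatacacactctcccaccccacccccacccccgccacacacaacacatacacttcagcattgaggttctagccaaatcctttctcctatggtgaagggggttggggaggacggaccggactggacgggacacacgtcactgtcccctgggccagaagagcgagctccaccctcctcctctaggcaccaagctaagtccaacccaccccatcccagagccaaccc
Cldn4: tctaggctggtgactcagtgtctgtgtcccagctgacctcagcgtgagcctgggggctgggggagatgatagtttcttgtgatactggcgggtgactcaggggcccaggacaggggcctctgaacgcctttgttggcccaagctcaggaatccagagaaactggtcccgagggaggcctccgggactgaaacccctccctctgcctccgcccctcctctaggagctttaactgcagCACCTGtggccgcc
Krt8: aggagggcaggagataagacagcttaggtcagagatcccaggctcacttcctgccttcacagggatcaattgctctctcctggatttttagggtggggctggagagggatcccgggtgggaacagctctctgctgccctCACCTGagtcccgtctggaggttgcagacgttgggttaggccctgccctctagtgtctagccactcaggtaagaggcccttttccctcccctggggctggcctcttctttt
Krt18: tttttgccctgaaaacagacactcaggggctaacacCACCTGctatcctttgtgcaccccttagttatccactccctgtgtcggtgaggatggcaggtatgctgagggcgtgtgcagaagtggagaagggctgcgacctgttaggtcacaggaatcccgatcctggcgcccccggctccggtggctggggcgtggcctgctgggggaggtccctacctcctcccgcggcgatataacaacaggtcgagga
Epcam held 2 matches, 187 and 19 bases before its start. Cldn4 held 1 match, 14 bases before the start, Krt8 1 at 111 bases and Krt18 1 at 214 bases, and Cldn3 held none in this window. RefSeq windows were found for 8 of the 10 genes, not for Cdh1 and Krt19, and 6 of these 8 held the E-box in at least 1 window (Epcam, Cldn4, Cldn7, Ocln, Krt8 and Krt18). Counted by window, 6 of 10 held it, beside 17.2% of 32851 promoters of the same length. The GC box GGGCGG on either strand (CCGCCC), which does not overlap the E-box letters, was in 7 of 10 windows, beside 32.7% of all. A match is a description of the letters and not evidence of binding.

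The cells carried the markers of their labels. All 8 pluripotency markers were at least 2 log2 units higher on every pluripotent array than on both source arrays, and all 10 cardiomyocyte markers exceeded TTF by that much in VM. All 8 endothelial markers exceeded TTF in VM by at least 2 log2 units too, with a median level of 9.98. Keratinocyte markers had a median of 4.16 in TTF and 4.66 in VM. Fibroblast and feeder markers, with medians of 13.29 in TTF and 9.68 in VM, were at 6.41 to 6.76 in ViPSC, 6.84 to 7.40 in TiPSC and 6.14 to 6.64 in ESC. ESC 1 stood apart in primitive endoderm markers, with a median of 6.50 against 4.63 to 4.83 on the other pluripotent arrays, Gata6 at 7.01 against 3.89 to 4.50 and Dab2 at 7.90 against 4.57 to 5.28. Pairwise correlations over all genes were 0.998 within ViPSC, 0.993 to 0.997 within TiPSC and 0.984 to 0.993 within ESC. The labels describe bulk RNA, in which fewer cells of a type and less RNA per cell cannot be told apart.

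Pluripotent cells of all 3 groups held most of these genes far above the source cells. Of the 10 genes, 7 were at least 2 log2 units higher on every pluripotent array than on both source arrays (Cdh1, Epcam, Cldn3, Cldn4, Cldn7, Krt8 and Krt19), beside 2.27% of all genes. Against TTF alone the count was 8, with Krt18 added, beside 3.61%, and against VM it was 7, beside 4.25%. With 1 array per source there is no test of these differences. Values are log2 levels made by RMA, a method that normalizes arrays against each other and summarizes the probes of each probe set. It compresses differences near the bottom of the scale, and no detection calls were used.

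**Figure D1:**
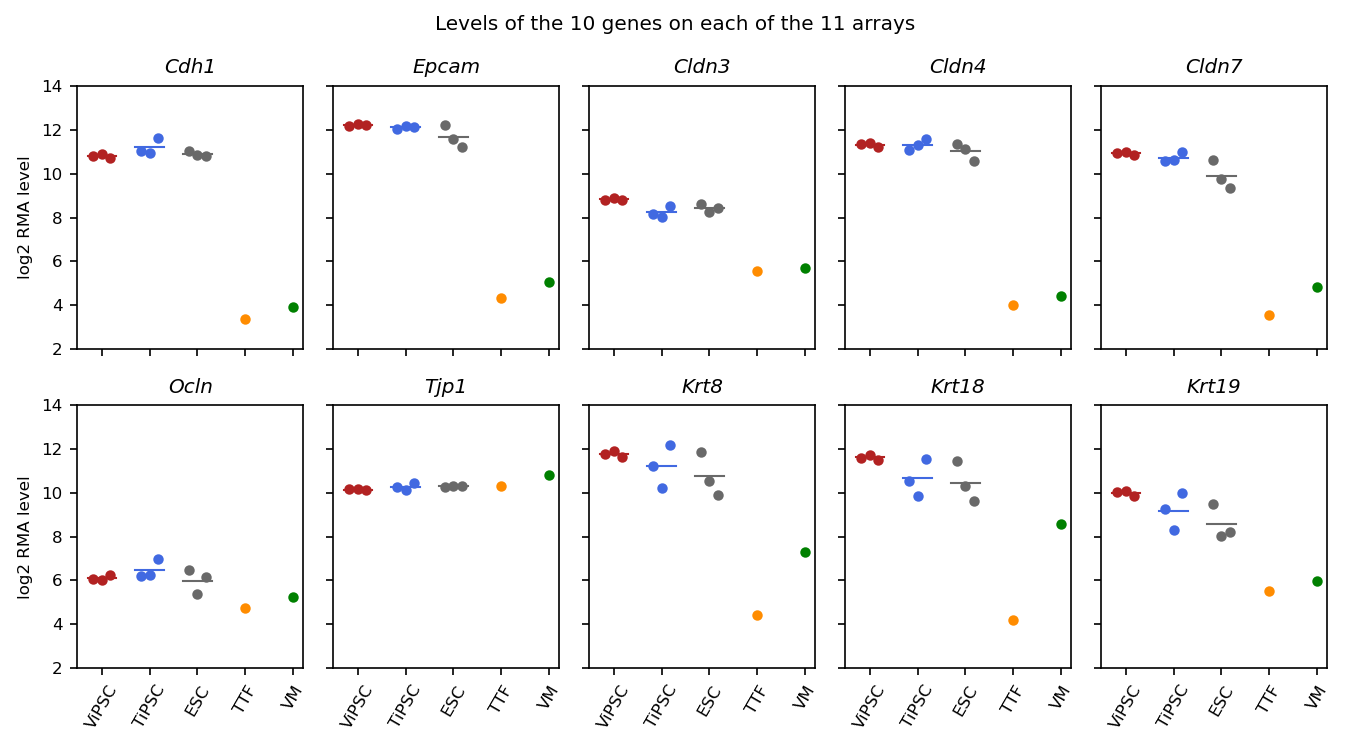
Log2 RMA level (vertical axis) of the 10 genes in the 5 groups (horizontal axis), with 1 point per array and a line at the mean of each group of 3. Cdh1, Epcam, Cldn4 and Cldn7 lie between 9.34 and 12.25 on all 9 pluripotent arrays and at 5.07 or below in both source cells, whereas Tjp1 is at 10.105 to 10.79 on every array.

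Cdh1 (chr8:106603350-106670247), which encodes E-cadherin, was at 10.80, 10.91 and 10.70 on the ViPSC arrays, 11.05, 10.95 and 11.61 on the TiPSC arrays and 11.01, 10.87 and 10.82 on the ESC arrays. It was at 3.395 in TTF and 3.90 in VM, 6.80 log2 units or more below the lowest pluripotent array. The TiPSC arrays did not overlap the ViPSC arrays, with TiPSC 3 the highest of all 9. The 5 genes whose profile over the 11 arrays, centred on its own mean, was nearest to Cdh1 were Sall4, Mtm1, Lin28a, Trim71 and Tfcp2l1, with root mean square differences of 0.22, 0.25, 0.33, 0.33 and 0.36 log2 units. Sall4, Lin28a, Trim71 and Tfcp2l1 are known as regulators of pluripotent or early embryonic cells. All 5 were at 9.95 or above on the pluripotent arrays and at 6.54 or below in the source cells. Cdh1 has such a gap itself, so the choice by profile brings it along and it is not a separate result.

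Epcam (chr17:87635979-87651127), a surface adhesion molecule of simple epithelia, read 12.19, 12.25 and 12.23 in ViPSC, 12.06, 12.19 and 12.15 in TiPSC and 12.22, 11.56 and 11.21 in ESC. The source arrays were at 4.31 (TTF) and 5.07 (VM). Thus 7 pluripotent arrays lay between 12.06 and 12.25, and ESC 2 and ESC 3 lay below them. A second Epcam probe set did not follow: it read 6.96 to 7.21 on the pluripotent arrays, 7.04 in TTF and 5.69 in VM.

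The claudins form the seal of the tight junction and set which ions pass it. Cldn4 (chr5:134945123-134946934) was at 11.33, 11.41 and 11.21 in ViPSC, 11.10, 11.29 and 11.57 in TiPSC and 11.37, 11.14 and 10.59 in ESC, with 4.0004 in TTF and 4.42 in VM. Cldn7 (chr11:69964779-69967886), which binds Epcam protein, was at 10.93, 11.01 and 10.86 in ViPSC, 10.57, 10.61 and 11.01 in TiPSC and 10.60, 9.77 and 9.34 in ESC, with 3.55 in TTF and 4.83 in VM. ESC 3 was the lowest pluripotent array for both genes. Cldn3 (chr5:134986214-134987476), a neighbour of Cldn4 on chromosome 5, was at 8.81, 8.91 and 8.82 in ViPSC, 8.17, 8.05 and 8.50 in TiPSC and 8.62, 8.26 and 8.43 in ESC, with 5.55 in TTF and 5.71 in VM. Its gap between pluripotent and source cells was smaller, at 2.34 log2 units between the lowest pluripotent array and VM, against 6.16 for Cldn4 and 4.52 for Cldn7.

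The genes of occludin and ZO-1 stayed within 2 log2 units of at least 1 source array. Ocln (chr13:100496504-100552718), a membrane protein of tight junctions, was at 6.07, 6.03 and 6.24 in ViPSC, 6.22, 6.24 and 6.99 in TiPSC and 6.46, 5.36 and 6.15 in ESC, with 4.76 in TTF and 5.25 in VM. Its lowest pluripotent array, ESC 2, was 0.11 log2 units above VM. A second Ocln probe set read 4.03 to 4.60 on the pluripotent arrays, 3.56 in TTF and 4.38 in VM, so that VM lay inside the pluripotent range. Tjp1 (chr7:65296165-65527850), the gene of the scaffold ZO-1, was at 10.15, 10.18 and 10.105 in ViPSC, 10.28, 10.12 and 10.45 in TiPSC, 10.27, 10.30 and 10.32 in ESC, 10.31 in TTF and 10.79 in VM. VM was its highest array, and TTF lay within the pluripotent range.

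The keratins were also high in pluripotent cells, and Krt8 and Krt18 separated the source cells from each other. Krt8 (chr15:101996711-102004342) was at 11.76, 11.89 and 11.65 in ViPSC, 11.23, 10.22 and 12.19 in TiPSC and 11.85, 10.53 and 9.91 in ESC, with 4.45 in TTF and 7.29 in VM. Krt18 (chr15:102028216-102032026), its filament partner and neighbour on chromosome 15, was at 11.59, 11.74 and 11.52 in ViPSC, 10.56, 9.84 and 11.56 in TiPSC and 11.46, 10.29 and 9.61 in ESC, with 4.22 in TTF and 8.57 in VM. VM thus exceeded TTF by 2.85 log2 units for Krt8 and 4.35 for Krt18, and they were the 2 of 10 genes past 2 log2 units in that direction, beside 4.68% of all genes. No member was that much lower in VM, beside 4.62%. The VM array carries endothelial markers as given above. The 7 mesothelial and epicardial markers had a median of 5.54 in VM against 3.81 in TTF, but they did not move together. Past the threshold of 2 log2 units, VM exceeded TTF for 1 of them (Upk3b, 5.89 against 3.55). It fell below TTF by that much for 1 other (Bnc1, 3.65 against 6.02). The part of endothelial, mesothelial or epicardial cells in the VM keratin levels was not tested.

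Krt19 (chr11:100140810-100145926), a small type I keratin of ducts and glands, was at 10.03, 10.08 and 9.87 in ViPSC, 9.25, 8.31 and 9.99 in TiPSC and 9.51, 8.02 and 8.21 in ESC. Its source levels were 5.51 in TTF and 5.97 in VM, so it did not separate the source cells as Krt8 and Krt18 did. The 5 profiles nearest to Krt8 over the 11 arrays were those of Fam169a, Hook1, Myb, Rpp25 and Zscan10, with root mean square differences of 0.53, 0.62, 0.72, 0.72 and 0.72 log2 units. These are wider gaps than those of the genes nearest to Cdh1.

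The keratins were the most variable of the 10 genes between arrays of a group. The pooled within-group SD over the 9 pluripotent arrays was 0.81 log2 units for Krt8, 0.74 for Krt18 and 0.68 for Krt19, at the 99.7th, 99.5th and 99.3rd percentile of all genes, whose median was 0.15. It was 0.42 for Ocln, 0.40 for Cldn7, 0.30 for Epcam, 0.28 for Cldn4, 0.22 for Cdh1 and 0.17 for Cldn3. Tjp1 had the least spread, 0.10, at the 21.0th percentile. The spread lay in TiPSC and ESC: the SD of Krt8 (n = 3 each) was 0.12 over the ViPSC arrays, 0.98 over the TiPSC and 0.99 over the ESC arrays, and that of Krt18 was 0.11, 0.86 and 0.94. Within TiPSC, array 2 was the lowest and array 3 the highest for all 3 keratins. Within ESC, array 1 was the highest for all 3.

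**Figure D2:**
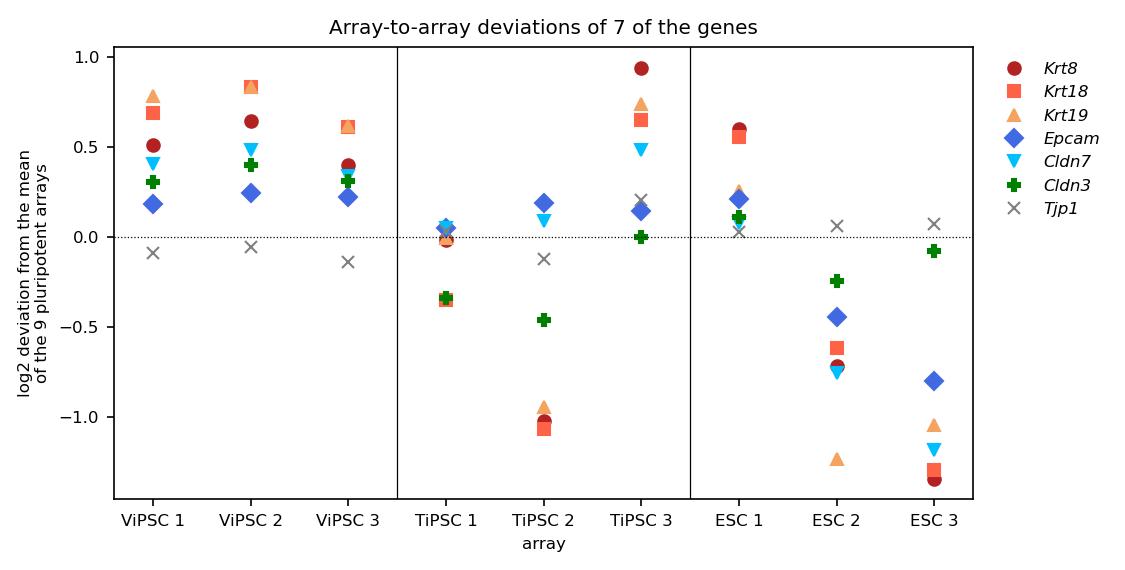
Log2 deviation of 7 genes from their own mean over the 9 pluripotent arrays (vertical axis) on each array (horizontal axis), with 1 symbol per gene. The keratins range from -1.34 (Krt8 on ESC 3) to 0.94 (Krt8 on TiPSC 3) and lie together at TiPSC 2, TiPSC 3 and ESC 3, whereas Tjp1 stays between -0.14 and 0.20.

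The low arrays were mostly ESC 2 and ESC 3. ESC 3 was the lowest of the 9 pluripotent arrays for 5 of the 10 genes (Epcam, Cldn4, Cldn7, Krt8 and Krt18), beside 17.4% of all genes, and ESC 2 for 2 (Ocln and Krt19), beside 16.1%. ViPSC 3 was the lowest for Cdh1 and Tjp1, beside 9.60%, and TiPSC 2 for Cldn3, beside 8.15%. TiPSC 3 was the highest for 6 genes, beside 15.2%, and ViPSC 2 for the other 4, beside 8.68%. Among the lists of related genes described below, surface or secreted genes had median deviations of -0.43 on ESC 2 and -0.77 on ESC 3. Tight junction genes had -0.33 and -0.45, polarity genes -0.26 and -0.27, and adherens junction partners -0.17 and -0.14. Desmosome genes had -0.12 and -0.09, other claudins -0.06 and -0.10, and other keratins -0.05 and 0.06. The 16 epithelial regulators were not low on both: their median deviation was 0.16 on ESC 2 and -0.15 on ESC 3. On the other 7 arrays it was -0.05 to 0.05. Esrp1, a splicing factor of epithelial cells, was lowest on these arrays, at 9.24 on ESC 2 and 8.73 on ESC 3 against 9.93 to 10.46 on the others. The grainyhead factors were split. Grhl1 was also lowest there, at 6.67 and 6.61 against 7.18 to 7.45. Grhl2 was instead highest there, at 8.69 and 8.48 against 8.24 to 8.43, as was Grhl3, at 8.14 and 8.15 against 6.96 to 7.90. Among repressors, Zeb1 was highest on ESC 2 and ESC 3, at 7.78 and 8.45 against 6.53 to 7.32 on the other arrays. The other repressors lay within their range on the other arrays. Snai1 was at 4.71 and 4.38 against 4.38 to 5.14, and Snai2 at 5.56 and 5.47 against 5.08 to 5.85. Zeb2 was at 3.39 and 3.24 against 3.11 to 3.54. The 11 mesenchymal genes had median deviations of -0.07 and -0.09 on these arrays. Cdh1 itself, at 10.87 and 10.82, stayed within the range of the ViPSC arrays on ESC 2 and ESC 3.

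ViPSC and TiPSC differ in the cell of origin. In the limma fit, Cldn3 was the 1 of 10 genes that differed, beside 5.63% of all genes with an adjusted p under 0.05. It was higher in ViPSC, at 8.84 ± 0.05 (SD, n = 3) against 8.24 ± 0.24 in TiPSC, by 0.61 ± 0.13 log2 units (SE; 95% interval 0.31 to 0.90, limma adjusted p = 0.0324), and every ViPSC array lay above every TiPSC array. All 4 Cldn3 probe sets were higher in ViPSC, by 0.61, 0.56, 0.57 and 0.52 log2 units with limma adjusted p of 0.0353, 0.0595, 0.0460 and 0.0125 in the table of all probe sets. The 4 probe sets share transcripts and are not independent. Leaving out 1 array ended the call without ViPSC 1 (limma adjusted p = 0.111), ViPSC 2 (0.124), ViPSC 3 (0.109), TiPSC 1 (0.119) or TiPSC 2 (0.0948), and it held without TiPSC 3 (0.0148) or any of the ESC arrays (0.0155 to 0.0323).

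The other 9 genes did not pass in that comparison, and 2 of the 10, Cldn3 and Cdh1, had an unadjusted p under 0.05, beside 21.0% of all genes. These 2 were also the genes whose arrays did not overlap, beside 33.5%. Cdh1 was at 10.81 ± 0.11 in ViPSC and 11.20 ± 0.36 in TiPSC (SD, n = 3), a difference of -0.40 ± 0.16 log2 units (SE; limma adjusted p = 0.196). On TiPSC 3, the array with the highest Cdh1, the 422 expressed genes of chromosome 8, where Cdh1 lies, had a median deviation of 0.47 from the mean of the 9 arrays, against -0.15 to 0.03 on the other 8. With chromosome medians removed, the Cdh1 difference was -0.17, and its part in the result was not tested further. Krt18 was 0.97 ± 0.49 (limma adjusted p = 0.307, 95% interval -0.14 to 2.07) and Krt19 0.81 ± 0.45 (0.356, interval -0.20 to 1.82) log2 units above TiPSC in ViPSC. The Krt19 difference was 0.37 with chromosome medians removed, Krt19 being on chromosome 11, and it ran from 0.37 (without TiPSC 2) to 1.22 (without TiPSC 3) with 1 array left out. With array weights, 3 of the 10 genes passed (Cldn3, Krt18 and Krt19), beside 19.9%. TiPSC 3, the TiPSC array with the highest Krt18 and Krt19, had a weight of 0.44, against 1.65 for TiPSC 1 and 1.06 for TiPSC 2. For Krt8 the interval ran from -0.65 to 1.75, for Cldn4 from -0.44 to 0.44 and for Epcam from -0.38 to 0.55. The median difference of the 10 genes was 0.14, against -0.03 over all genes.

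**Figure D3:**
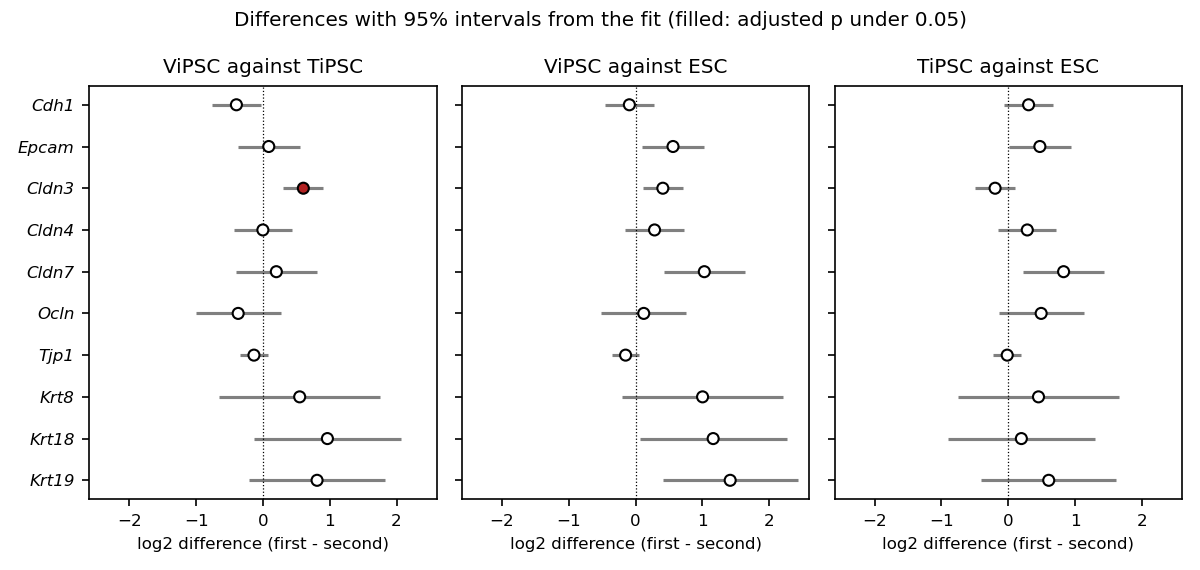
Log2 difference (horizontal axis) of each of the 10 genes in the 3 comparisons of pluripotent groups, as the first group minus the second, with 95% intervals from the limma fit. The filled point, Cldn3 in ViPSC against TiPSC at 0.61, is the 1 difference past an adjusted p of 0.05, and the keratin intervals are the widest.

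Against ESC, the question is how closely induced cells match embryonic stem cells. In ViPSC, 0 of the 10 genes passed in the limma fit, beside 2.14% of all genes, while 5 had an unadjusted p under 0.05 (Epcam, Cldn3, Cldn7, Krt18 and Krt19), beside 17.2%. All 5 were higher in ViPSC: Krt19 by 1.42 ± 0.45 log2 units (SE; limma adjusted p = 0.144), Krt18 by 1.16 ± 0.49 (0.263), Cldn7 by 1.03 ± 0.27 (0.0909), Epcam by 0.56 ± 0.21 (0.205) and Cldn3 by 0.41 ± 0.13 (0.152). With array weights 6 of the 10 genes passed, beside 19.0%. ESC 1 had the lowest weight of the 9 arrays, 0.26, against 1.79 for ESC 2 and 0.40 for ESC 3. The weighted fit is therefore not separate from the fit without ESC 1 given below. The arrays did not overlap for Cldn3, Cldn7, Krt18 and Krt19, nor for Tjp1, which was lower in ViPSC by 0.15 log2 units, beside 22.2% of all genes. Of the 10 genes, 8 were higher in ViPSC, with a median difference of 0.48 against -0.0034 over all genes.

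This comparison turned on whether ESC 1, the array with the primitive endoderm markers, was kept. Over all genes, ESC 1 was the ESC array that correlated most with the ViPSC arrays, at 0.993. ESC 2 was at 0.989 and ESC 3 at 0.987. With ESC 1 kept and ESC 2 or ESC 3 left out, 0 of the 10 genes passed. Without ESC 1, the ESC group was ESC 2 and ESC 3, on which most of these genes were low. In that fit 5 of the 10 genes passed, beside 13.8% of all genes. Cldn7 was then higher in ViPSC by 1.38 log2 units (limma adjusted p = 0.0010), Epcam by 0.84 (0.0018), Krt19 by 1.88 (0.0122), Krt18 by 1.67 (0.0290) and Cldn3 by 0.50 (0.0403), and Krt8 by 1.55 (0.0564) did not pass. Cldn7 and Krt19 lie on chromosome 11, whose 644 expressed genes had median deviations of 0.26 to 0.28 on the ViPSC arrays, -0.18 to -0.15 on the TiPSC arrays and -0.15, -0.26 and 0.13 on the ESC arrays. With chromosome medians removed and all 9 arrays kept, the difference from ESC was 0.67 for Cldn7 and 1.05 for Krt19, and Cldn7 against TiPSC went from 0.20 to -0.24. The part of chromosome 11 in these differences was not tested further.

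In TiPSC against ESC, 0 of the 10 genes passed in the limma fit, beside 0.632% of all genes, and 2 (Epcam and Cldn7) had an unadjusted p under 0.05, beside 18.1%. With array weights, limma called 2, beside 16.0%. Cldn7 was higher in TiPSC by 0.83 ± 0.27 log2 units (SE; limma adjusted p = 0.171) and Epcam by 0.47 ± 0.21 (0.271). No gene had arrays that did not overlap, beside 15.8%, and 8 of 10 were higher in TiPSC, with a median of 0.38 against 0.03 over all genes. Without ESC 1, Epcam (0.75, limma adjusted p = 0.0027) and Cldn7 (1.18, 0.0018) passed, beside 16.7% of all genes. With ESC 1 kept and ESC 2 or ESC 3 left out, 0 of the 10 genes passed. ESC 1 correlated with the TiPSC arrays at 0.993 to 0.994, ESC 2 at 0.985 to 0.988 and ESC 3 at 0.981 to 0.984. Both comparisons with ESC share the ESC arrays.

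Other genes of the epithelial program were read from 8 lists of claudins, tight junction genes, adherens junction partners, desmosome genes, keratins, polarity genes, regulators, and surface or secreted genes. Against the source cells, 5 of 16 regulators were at least 2 log2 units higher on every pluripotent array than on both source arrays, beside 2.27% of all genes. These were Esrp1, Tfap2c, Grhl3, Grhl2 and Elf3. Esrp1 ranged from 8.73 to 10.46 against 3.02 in TTF and 3.12 in VM. Tfap2c, a transcription factor of early embryo and trophoblast, ranged from 9.81 to 10.51 against 3.45 and 3.38, and Grhl3, a grainyhead factor, from 6.96 to 8.15 against 3.44 and 3.74. Of 15 other claudins, Cldn6, a claudin of embryonic epithelia, passed, at 7.74 to 10.25 against 3.84 and 4.31. Of 14 tight junction genes, the scaffolds Tjp3 and Cgn passed, and of 12 polarity genes Prkcz and Llgl2. Of 12 surface or secreted genes, 4 passed (Spint1, St14, Prss8 and Cldn6), and of 19 other keratins Krt17. Of 11 adherens junction partners 0 passed.

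Desmosome genes, which join keratin filaments across cells and are also part of heart muscle junctions, gave 0 of 11 above both sources, beside 2.27% of all genes. Among them 5 of 11 exceeded TTF in VM by at least 2 log2 units (Dsp, Dsg2, Pkp2, Pkp4 and Perp), beside 4.68% of all genes. Dsg2, a desmosomal cadherin, was at 9.20 to 10.10 on the pluripotent arrays, 2.99 in TTF and 10.50 in VM. Perp was at 8.14 to 9.50, 3.49 in TTF and 11.38 in VM. Both were therefore high in pluripotent cells and in VM and low in TTF.

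Of the 11 mesenchymal repressors and markers, 3 were at least 2 log2 units lower on every pluripotent array than on both sources (Zeb2, Cdh2 and Cdh11), beside 1.84% of all genes. Cdh2, or N-cadherin, was at 5.94 to 6.82 against 10.67 in TTF and 11.47 in VM, and Zeb2 at 3.11 to 3.54 against 7.46 and 7.19. The Snail genes separated the sources: Snai2 was at 5.08 to 5.85 on the pluripotent arrays, 12.20 in TTF and 7.61 in VM, and Snai1 at 4.38 to 5.14, 7.19 in TTF and 4.63 in VM. Snai1 in VM thus lay inside the pluripotent range, as did Twist1 at 5.46 (5.19 to 5.82). Fn1, the fibronectin gene, was lower in VM (11.46) than on any pluripotent array (11.92 to 12.52) and was at 14.49 in TTF. Zeb1 was at 6.53 to 8.45 on the pluripotent arrays, 11.42 in TTF and 10.45 in VM.

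**Figure D4:**
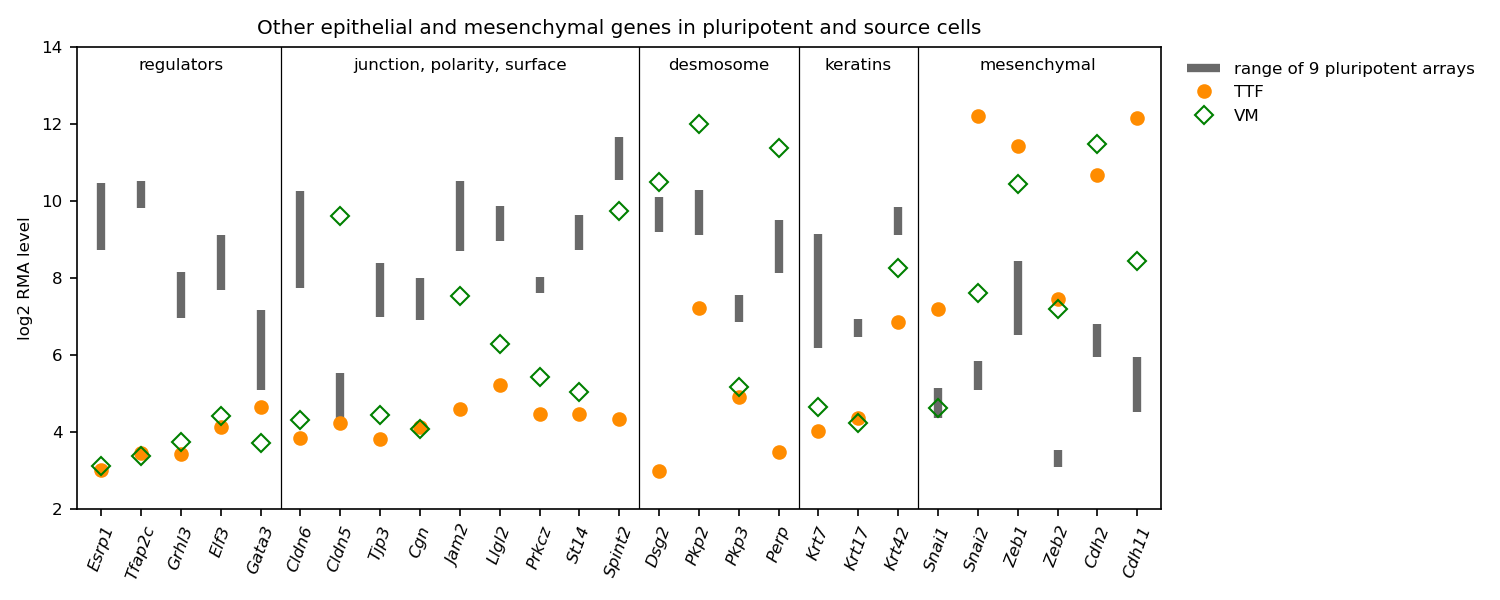
Log2 RMA level (vertical axis) of 27 other epithelial and mesenchymal genes (horizontal axis, grouped by role), with the range over the 9 pluripotent arrays as a bar and the TTF and VM arrays as points. Regulators such as Esrp1 (8.73 to 10.46) lie above both source cells, desmosomal Dsg2 and Perp are high in VM and low in TTF, and Zeb2, Cdh2 and Cdh11 lie below both.

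Between the pluripotent groups, 9 of the 109 genes of these 8 lists passed in the limma fit in ViPSC against TiPSC (8.26%, beside 5.63% of all genes) and 4 in ViPSC against ESC (3.67%, beside 2.14%). In TiPSC against ESC 0 passed, beside 0.632%, while 25 of the 109 had an unadjusted p under 0.05, beside 18.1% of all genes. With array weights 27 passed in limma (24.8%, beside 16.0%). Higher in ViPSC than in TiPSC were Krt7 by 2.05 ± 0.39 log2 units (SE; limma adjusted p = 0.0201), a keratin of ducts and trophoblast, Gata3 by 1.63 ± 0.18 (0.0023), Elf3 by 1.09 ± 0.16 (0.0086), Cldn5 by 1.03 ± 0.13 (0.0042), the nectin Nectin3 by 0.74 ± 0.12 (0.0120), Krt42 by 0.53 ± 0.09 (0.0155) and Jup, or plakoglobin, by 0.37 ± 0.08 (0.0260). Lower in ViPSC were Cd24a by -1.06 ± 0.19 (0.0144) and Cxadr by -0.82 ± 0.13 (0.0107). Krt42 and Jup lie on chromosome 11, and with chromosome medians removed their differences were 0.09 and -0.07. With each of the 9 arrays left out in turn, Cldn5 and Gata3 passed every time, Elf3 8 times of 9 (lost without ViPSC 2, 0.05001), and the other 6 between 4 and 6 times. Of those 6, all were lost without ViPSC 1 and without TiPSC 1 and, except Cxadr and Nectin3, without ViPSC 2. Without ViPSC 3 all 6 were lost, and without TiPSC 2 Krt7 and Jup.

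Markers of other cell types moved with this comparison. Trophoblast markers, which include Krt7 and Gata3, had medians of 6.97 to 7.24 on the ViPSC arrays, 5.77 to 5.82 on the TiPSC arrays and 5.91 to 6.72 on the ESC arrays, and 4 of 11 (Gata3, Krt7, Ascl2 and Plac1) were higher in ViPSC, beside 5.63% of all genes called in either direction. Endothelial markers, which include Cldn5, had medians of 5.55 to 5.68, 4.66 to 4.87 and 4.54 to 5.02 in ViPSC, TiPSC and ESC. Of these 8, 2 (Pecam1 and Cldn5) passed in ViPSC against TiPSC, beside 5.63% of all genes. Pecam1 was higher in ViPSC by 1.33 ± 0.21 log2 units (SE; limma adjusted p = 0.0110), a call lost without any ViPSC array. Pecam1 lies on chromosome 11, and with chromosome medians removed its difference was 0.89 (limma adjusted p = 0.0233). The 16 fibroblast and feeder markers had a median difference of -0.40 log2 units between ViPSC and TiPSC, and of 0.47 between TiPSC and ESC. Sparc was the 1 marker of the 16 that passed in either comparison, and it went the other way. Its difference was 1.06 ± 0.08 log2 units in ViPSC against TiPSC (SE; limma adjusted p = 0.0005) and -0.78 ± 0.08 in TiPSC against ESC (0.0085). Sparc lies on chromosome 11, and with chromosome medians removed these differences were 0.62 and -0.71. Of the 12 primitive endoderm markers, 1 (Amn) passed against ESC, beside 2.14% of all genes for ViPSC and 0.632% for TiPSC. Its difference was -1.20 ± 0.22 log2 units in ViPSC (SE; limma adjusted p = 0.0308) and -1.25 ± 0.22 in TiPSC (0.0442). These calls held in 4 and 2 of the 9 fits that left out 1 array. The part of these cell types in the differences of Cldn3, Krt7, Gata3 and Cldn5 was not tested. Against ESC, ViPSC were higher in Cldn5 by 1.08 ± 0.13 log2 units (SE; limma adjusted p = 0.0091), the tight junction scaffold Tjp3 by 0.96 ± 0.20 (0.0482), the desmosomal plakophilin Pkp2 by 0.85 ± 0.17 (0.0404) and Elf3 by 0.84 ± 0.16 (0.0394). Cldn5 was lost without any ViPSC array. Tjp3 and Elf3 were lost without any ViPSC array and without TiPSC 1, TiPSC 2, ESC 2 or ESC 3, and Pkp2 also without TiPSC 3. Without ESC 1, 33 of the 109 list genes passed here (30.3%, beside 13.8% of all genes) and 31 in TiPSC against ESC (28.4%, beside 16.7%). These counts were 1 and 0 without ESC 2, and 2 and 0 without ESC 3.

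Of the 11 mesenchymal genes, Snai2 passed in ViPSC against TiPSC, at 5.80 ± 0.08 against 5.33 ± 0.21 (SD, n = 3), a difference of 0.46 ± 0.11 log2 units (SE; limma adjusted p = 0.0480), and the call was lost in 7 of 9 fits that left out 1 array. It held without ESC 1 and without ESC 3.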

How the data were processed

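The authors deposited log2 expression values made by RMA, per the submitters' processing notes. The RMA software, its version and the probe annotation are not given in the sources used here. The 64 control probe sets of 45101, 932 with several gene symbols and 9160 without a symbol were left out. Symbols came from the platform annotation, and coordinates from a RefSeq table (GRCm38.p6) that matched 34741 of 34945 probe sets. Each gene was represented by its probe set of highest mean level across all 11 arrays.

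The 3 pluripotent groups (9 arrays) were compared with limma 3.58.1 (lmFit and eBayes) in R 4.3.3, with 1 mean per group and a shared spread. P-values are two-sided and adjusted by Benjamini-Hochberg over 18193 genes, with a threshold of 0.05. Source cells were compared by a difference of 2 log2 units. Expressed genes, for chromosome medians, had a mean of at least 7. The fit was tested on simulated data.

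Genes named were the members with every probe set, up to 4 genes per other list and comparison past the threshold, up to 3 per list with the largest difference from source cells, the repressors Snai1, Snai2, Zeb1 and Zeb2, Cdh2, and the 5 nearest profiles of Cdh1 and Krt8. Genes that make up a count were also named after their values were seen, as were Gata6, Dab2, Grhl1, Grhl2, Twist1 and Fn1. The members and lists were chosen with earlier results of these data known.

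Alternatives were other probe set rules, the 6 arrays compared alone, trend and robust eBayes, array weights, a filter on low levels, median centring, removed chromosome medians, a replicate block, and leaving out each array. The number of arrays limits the precision.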

Additional observations from a re-analysis of the deposited data

How the results depend on the processing

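Of the single-gene differences of the 10 genes under all alternatives, 506 kept their direction and side of the threshold, 17 newly passed, 6 no longer passed and 11 changed sign. With array weights 3, 6 and 2 of the 10 genes passed in the 3 comparisons (ViPSC with TiPSC, ViPSC with ESC, TiPSC with ESC), and 23, 34 and 27 genes of the other epithelial lists. With the 6 arrays compared alone, 21 and 2 list genes passed in the first and second comparison. Replicate numbers did not pair the arrays: same-numbered arrays correlated at -0.12 to 0.12 in their deviations from the group means, and an array matched its own number best in 5 of 18 cases. With the replicate block 0 of the 10 genes passed in ViPSC against TiPSC (Cldn3, limma adjusted p = 0.0572) and 1 list gene in ViPSC against ESC. Leaving out 1 array gave 0 to 1, 0 to 5 and 0 to 2 of the 10 genes, and 3 to 16, 0 to 33 and 0 to 31 list genes. The sign changed for Epcam in ViPSC against TiPSC with the mean of probe sets (-0.0059), for Cldn4 with array weights (0.0858) and removed chromosome medians (0.0317), and for Cldn7 with the latter (-0.24). With 1 array left out the ranges that crossed 0 were -0.11 to 0.12 for Cldn4 in ViPSC against TiPSC, -0.19 to 0.36 for Ocln in ViPSC against ESC, and in TiPSC against ESC -0.0985 to 0.0634 for Tjp1, -0.0347 to 0.995 for Krt8 and -0.26 to 0.70 for Krt18. The cause was not tested. Over all genes 1024, 390 and 115 passed in the 3 comparisons. The counts were 2621, 73 and 1 with the 6 arrays alone, 3613, 3453 and 2913 with array weights, 623, 103 and 9 with the block, and 207 to 1994, 22 to 2519 and 12 to 3038 with 1 array left out. They were 1635 in ViPSC against TiPSC with every probe set, and 65 in TiPSC against ESC with mean probe sets. Removed chromosome medians changed the share of higher calls from 582 of 1024 to 526 of 1186, from 264 of 390 to 157 of 304 and from 53 of 115 to 45 of 130. The count of 7 genes above both sources held with each array left out, with mean probe sets and with median centring, and was 8 at 1 log2 unit, where 3 genes were higher in VM than in TTF.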
